A study of Homo sapiens with 20 samples.

Results

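The genes MTAP, CDKN2A and CDKN2B lie side by side on the short arm of human chromosome 9, in band 9p21, and were examined here in maps of accessible chromatin from SW872, an established human liposarcoma cell line. The region was chosen by position alone, as every ATAC-seq peak that overlapped chr9:20500000-23500000 in hg19 (GRCh37). Within this window MTAP was taken as chr9:21802000-21866000, CDKN2A as chr9:21967000-21995000 and CDKN2B as chr9:22002000-22010000. Peaks of all lists that shared 1 bp or more were merged into sites, and 283 of 372133 sites in all fell in the window. Of these, 11 lay in MTAP, 15 in CDKN2A and 5 in CDKN2B. The question asked of each list was whether a peak-free gap, which a homozygous deletion would leave, covers these genes, and where its edges lie.

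CDKN2A has alternative first exons that give rise to 2 unrelated tumour suppressor proteins. One is p16INK4a, which inhibits the kinases CDK4 and CDK6 and so keeps the retinoblastoma protein active, and the other is ARF, which holds back MDM2 and stabilises p53. CDKN2B encodes p15INK4b, a further inhibitor of CDK4 and CDK6. MTAP encodes methylthioadenosine phosphorylase, which recycles a by-product of polyamine synthesis into the methionine and adenine pools. The 3 genes are often lost together in cancers, sarcomas among them, and MTAP is then lost as a neighbour of the tumour suppressors.

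The study transduced SW872 cells with 1 of 7 vectors and selected stable lines: the empty vector (EV), TAZ4SA and YAP5SA (activated TAZ and YAP with serines changed to alanine), full-length CAMTA1, full-length TFE3, and the fusion proteins TAZ-CAMTA1 and YAP-TFE3, each of which joins a TEAD-binding N terminus to the C terminus of CAMTA1 or TFE3. The labels give 20 libraries, 3 per vector and 2 for TFE3. The third EV library is titled a redo, and the titles of the YAP-TFE3 libraries name YAP5SA as the YAP part. The constructs were Flag-tagged, the replicates are described as separate transductions, and all 7 groups share the SW872 background, so a deletion carried by the line should be seen in every list. The deposited data hold 1 peak list per vector, with no values per library. No value below therefore has a replicate error, no test was run, and the read depth behind a list is unknown. The lists held between 152702 peaks (TAZ4SA) and 236893 peaks (TAZ-CAMTA1) in all, so a difference between lists in the number of peaks in the region has to be read beside the length of the lists. The lists carry no gene names, and markers of the cell line were not analysed here.

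The promoters of the 3 genes are printed because the strongest peaks of MTAP, CDKN2A and CDKN2B, described below, lay at the ends of the intervals where these genes start. Each is the 250 bp before an annotated start, from RefSeq (build GRCh38.p14), read 5′ to 3′ on the strand of the gene. RefSeq gave 4 entries, 1 for MTAP on the plus strand, 2 for CDKN2A on the minus strand and 1 for CDKN2B on the minus strand. Their coordinates belong to another build than the peaks and were not converted: chr9:21802386-21802635 for MTAP, chr9:21995325-21995574 for the outer CDKN2A start, chr9:21974858-21975107 for the inner CDKN2A start and chr9:22009306-22009555 for CDKN2B. By textbook knowledge, ARF is made from the outer start and p16INK4a from the inner start. Capitals mark the letters GGAATG (bound by TEAD factors), CACGTG (an E-box of the family of TFE3) and CGCGT (a core bound by CAMTA factors), searched on both strands.
MTAP promoter: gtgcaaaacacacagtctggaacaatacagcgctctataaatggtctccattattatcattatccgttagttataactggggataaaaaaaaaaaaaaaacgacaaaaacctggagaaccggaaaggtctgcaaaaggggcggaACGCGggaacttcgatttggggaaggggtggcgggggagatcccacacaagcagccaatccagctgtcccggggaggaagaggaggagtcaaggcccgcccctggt
CDKN2A promoter of the outer start: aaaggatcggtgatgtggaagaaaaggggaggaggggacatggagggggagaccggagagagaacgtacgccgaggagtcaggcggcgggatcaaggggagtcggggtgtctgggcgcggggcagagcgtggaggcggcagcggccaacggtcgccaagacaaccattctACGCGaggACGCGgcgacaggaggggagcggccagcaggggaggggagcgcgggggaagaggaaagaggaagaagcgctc
CDKN2A promoter of the inner start: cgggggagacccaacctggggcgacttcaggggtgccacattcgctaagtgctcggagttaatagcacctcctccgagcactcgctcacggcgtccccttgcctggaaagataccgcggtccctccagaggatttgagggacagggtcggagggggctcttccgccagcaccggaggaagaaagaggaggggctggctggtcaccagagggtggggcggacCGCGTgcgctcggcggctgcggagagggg
CDKN2B promoter: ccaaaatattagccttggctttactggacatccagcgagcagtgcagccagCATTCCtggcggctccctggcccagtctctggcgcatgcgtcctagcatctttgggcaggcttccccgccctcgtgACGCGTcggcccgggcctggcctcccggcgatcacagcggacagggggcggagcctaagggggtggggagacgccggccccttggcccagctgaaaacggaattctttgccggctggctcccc

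The CDKN2A and CDKN2B promoters were richer in C and G than most, whereas that of MTAP was not. The GC content was 50% for MTAP, 66.8% for each CDKN2A start and 66.4% for CDKN2B, against a median of 58.0% over 35116 RefSeq promoters of the same length. CG dinucleotides numbered 11, 24, 20 and 18 in the same order, against a median of 11. The letters CGCGT were present in all 4, at 1 place in MTAP, the inner CDKN2A start and CDKN2B and at 2 places in the outer CDKN2A start, where overlapping matches were counted as 1 place. Of all promoters, 22.3% held them. GGAATG was present only in CDKN2B, as CATTCC on the other strand, and in 11.9% of all promoters. CACGTG, present in 6.34% of all promoters, and the AP-1 letters TGACTCA or TGAGTCA, present in 4.20%, were in none of the 4. The GC box letters GGGCGG were at 2 places in MTAP, 1 in the inner CDKN2A promoter and 2 in CDKN2B (42.6% of all promoters), and CCAAT was in MTAP alone (32.0%). These are matches of letters in short windows and say nothing of binding.

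No peak-free gap covered MTAP, CDKN2A or CDKN2B in any of the 7 lists. Each gene held peaks in 7 of 7 lists. MTAP, the longest of the 3 intervals at 64.0 kb, held 4 peaks in EV, 7 in TAZ4SA, 8 in YAP5SA, 8 in CAMTA1, 6 in TFE3, 7 in TAZ-CAMTA1 and 8 in YAP-TFE3. CDKN2A, at 28 kb, held 9, 11, 10, 13, 7, 12 and 15 peaks in the same order of lists. CDKN2B, at 8.0 kb, held 3, 2, 3, 3, 3, 6 and 3. EV was lowest for MTAP, TFE3 for CDKN2A and TAZ4SA for CDKN2B.

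The 2 CDK inhibitor genes were dense in peaks for their length. Peaks covered 14.5% to 25% of the CDKN2A interval and 18% to 27.6% of the CDKN2B interval, whereas they covered 1.84% to 3.97% of the autosomes, taken from the first to the last peak of each chromosome. Per list, the covered share was 5.76 to 7.89 times the autosomal share in CDKN2A and 6.37 to 9.79 times in CDKN2B. MTAP had 6.56% to 9.86% of its bases covered, 2.26 to 3.66 times the autosomal share. The 3 intervals were defined by genes and the autosomal share is over genes and intergenic DNA alike, so the ratio describes the locus and does not set it apart from other genes.

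**Figure D1:**
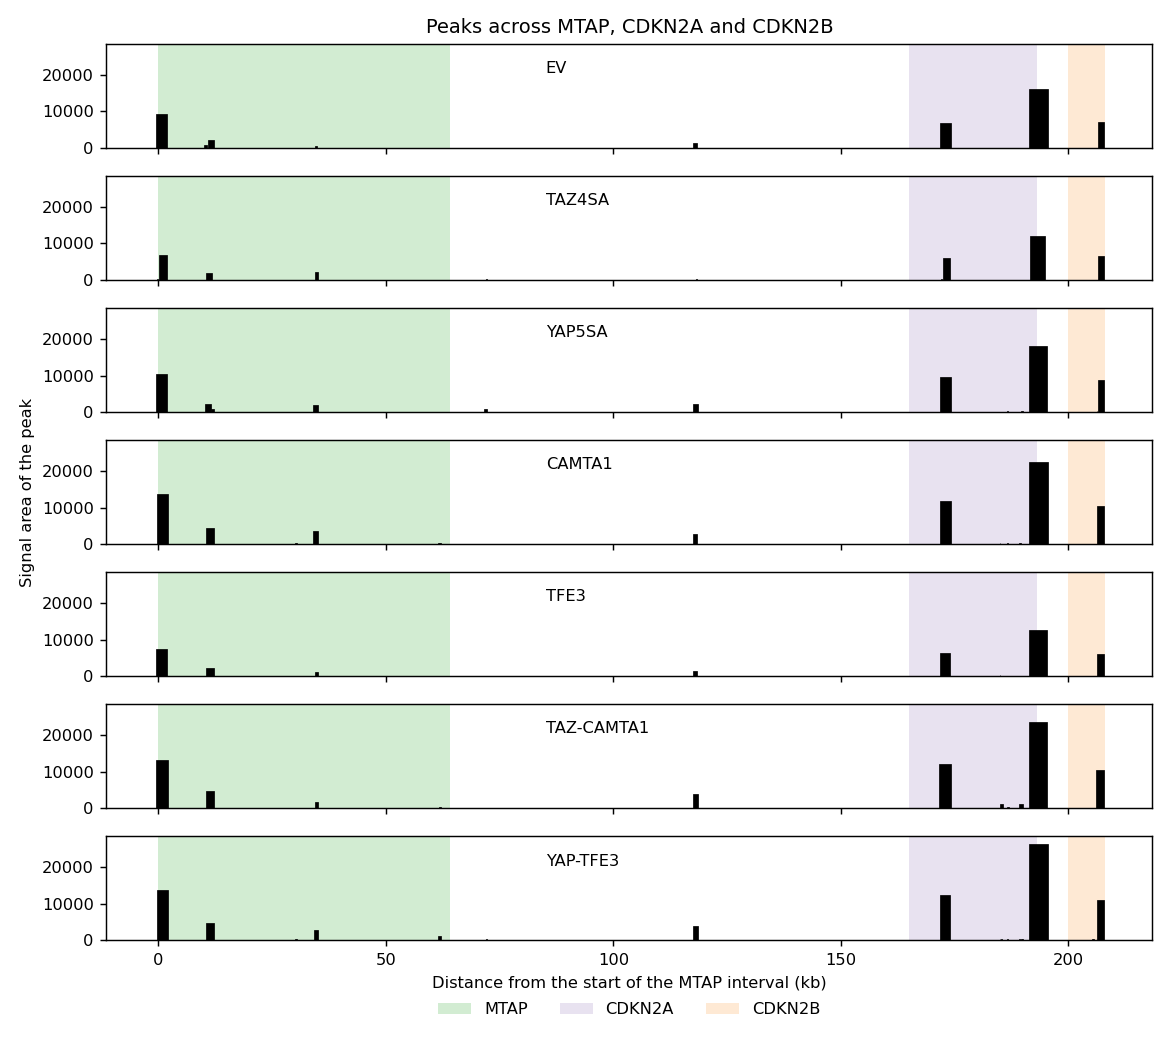
Each panel is 1 list, the x axis gives the distance from the start of the MTAP interval in kb, and each black bar spans a peak with its signal area as height; shaded bands are the MTAP, CDKN2A and CDKN2B intervals. In every panel the tallest bar stands at the upstream end of CDKN2A, and the bars at the start of MTAP, inside CDKN2A and at the upstream end of CDKN2B recur at the same places.

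In every list a strong peak stood at or near the end of each interval where, by strand, the gene starts. The distance from a peak to an annotated start was not measured, since the starts belong to another build. The strongest site of each gene and a further site inside CDKN2A are described here. These 4 were chosen for their signal after the values were seen, and their strength is given as a description. The deposited signal of a peak is an area, the peak caller's statistic summed over the length of the peak, and is called the area from here on.

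The peak at the upstream end of CDKN2A had the largest summed area of all 283 sites in the window. Its site, chr9:21993324-21997436, runs past the end of the CDKN2A interval. The area of its strongest peak was 16097 in EV, 11929 in TAZ4SA, 18169 in YAP5SA, 22305 in CAMTA1, 12548 in TFE3, 23417 in TAZ-CAMTA1 and 26259 in YAP-TFE3. YAP-TFE3 was highest and TAZ4SA lowest. Within each list this peak ranked between 274 and 407 by area among all peaks of the list, a percentile of 99.8 to 99.9. It was also broad, at 3304 to 4089 bp. The promoter of the outer CDKN2A start, from which ARF is made, borders that of CDKN2B-AS1, a long non-coding RNA read from the opposite strand, and the peak cannot be assigned to either of them from its position.

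A second CDKN2A site, chr9:21973579-21976173, lay inside the interval. Its area was 6951 in EV, 6140 in TAZ4SA, 9657 in YAP5SA, 11681 in CAMTA1, 6464 in TFE3, 12030 in TAZ-CAMTA1 and 12421 in YAP-TFE3. The order of the lists was the same as at the upstream end of CDKN2A, with TAZ4SA, TFE3 and EV lowest. The peak was 1479 to 2569 bp wide and stood at the 97.7th to 98.9th percentile of its list.

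CDKN2B had its strongest peak at the upstream end of its interval, in the site chr9:22008149-22009872. The area was 7081 in EV, 6612 in TAZ4SA, 8760 in YAP5SA, 10418 in CAMTA1, 5999 in TFE3, 10492 in TAZ-CAMTA1 and 11114 in YAP-TFE3. TFE3 was lowest here and YAP-TFE3 again highest. The peak was the narrowest of the 4 at 1279 to 1667 bp and lay at the 97.7th to 98.7th percentile of its list.

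MTAP had its strongest peak across the start of its interval, in the site chr9:21801551-21804184. The area was 9195 in EV, 6727 in TAZ4SA, 10425 in YAP5SA, 13824 in CAMTA1, 7488 in TFE3, 13257 in TAZ-CAMTA1 and 13769 in YAP-TFE3. CAMTA1 was highest, by a small margin over YAP-TFE3, and TAZ4SA lowest. The percentile within the list was 98.6 to 99.2.

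**Figure D2:**
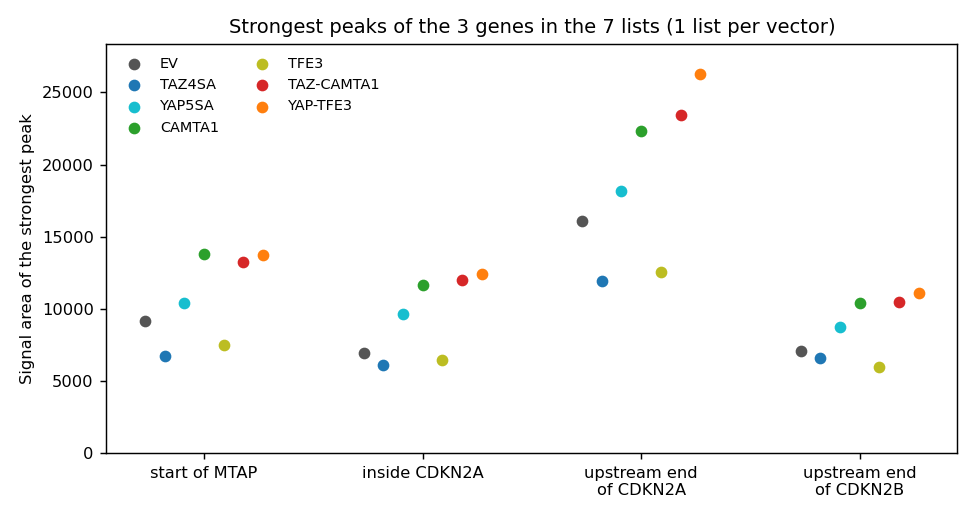
The y axis gives the area of the strongest peak at 4 sites named on the x axis, with 1 point per list and no error bar since each vector has a single list. At every site the points of EV, TAZ4SA and TFE3 lie below those of YAP5SA, CAMTA1, TAZ-CAMTA1 and YAP-TFE3.

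The 4 peaks were placed alike in the 7 lists. The summits of the MTAP peak fell within 60 bp of each other, between 21802614 and 21802674. Those of the upstream CDKN2A peak fell within 33 bp, those of the CDKN2B peak within 40 bp and those of the inner CDKN2A peak within 6 bp, at 21975168 to 21975174. The summit −log10 p, which the peak caller gave for the highest point of a peak, ran from 13.1 (TFE3) to 21 (YAP-TFE3) for MTAP and from 13.0 to 20.7 for the upstream CDKN2A peak in the same lists. It ran from 11.8 to 18 for the inner CDKN2A peak and from 13.9 to 21 for CDKN2B, again with TFE3 lowest and YAP-TFE3 highest. TFE3 has 2 libraries where every other vector has 3. What the smaller number does to its areas and summit values, here and below, was not tested.

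Relative to one another the 4 peaks kept a narrow range over the lists. The upstream CDKN2A peak was 1.61 to 1.91 times the MTAP peak in area within the same list, the inner CDKN2A peak 0.756 to 0.926 times and the CDKN2B peak 0.754 to 0.983 times. These ratios are taken within a list, so a factor common to all areas of the list cancels. The area is a summed statistic, and whether read depth acts on it as such a common factor was not tested.

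Against EV, the 4 sites had larger areas in YAP5SA, CAMTA1 and both fusions and smaller areas in TAZ4SA and TFE3, with the area summed over the peaks of a site. For YAP-TFE3 the area was 1.5 times that of EV at MTAP, 1.79 times at the inner CDKN2A site, 1.63 times at the upstream CDKN2A site and 1.55 times at CDKN2B. TAZ-CAMTA1 gave 1.44, 1.73, 1.45 and 1.46 times in the same order of sites. CAMTA1 gave 1.5, 1.68, 1.39 and 1.45 times, YAP5SA 1.14, 1.39, 1.13 and 1.26 times, TFE3 0.820, 0.930, 0.785 and 0.834 times and TAZ4SA 0.752, 0.917, 0.741 and 0.934 times.

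The same ratios over the 58784 autosomal sites with a peak in all 7 lists had medians of 2.45 for YAP-TFE3, 2.40 for TAZ-CAMTA1, 2.08 for CAMTA1, 1.32 for YAP5SA, 1.07 for TFE3 and 0.636 for TAZ4SA. The median thus differed between lists, and single sites spread widely around it. In YAP-TFE3 the ratio ran from 1.46 at the 10th percentile to 7.57 at the 90th. These reference sites were of any area, whereas the 4 sites were chosen for a large area, and no reference matched for area was used. Whether strong sites have low ratios in general was not tested. All 4 sites lay below the median of the list in YAP-TFE3 (11.0th to 23.6th percentile), TAZ-CAMTA1 (9.92nd to 23.3rd), CAMTA1 (17.1st to 34.0th) and TFE3 (21.3rd to 37.6th). In TAZ4SA all 4 lay above it (59.8th to 72.1st). In YAP5SA only the inner CDKN2A site did, at the 53.2nd percentile. Other strong sites of the window were placed alike. Of the other 11 sites among the 15 with the largest summed area in the window, 10 lay below it in YAP-TFE3 and 10 in TAZ-CAMTA1, 8 in CAMTA1 and 8 in TFE3. By summit −log10 p in place of area, a choice made after seeing the data, the 4 sites lay above the median difference to EV in both fusions and CAMTA1 (54.2nd to 90.1st percentile) and below it in TFE3 (1.85th to 17.7th). For YAP5SA they lay at the 60.6th percentile for MTAP, the 48.1st for the inner and the 54.9th for the upstream CDKN2A site and the 87.7th for CDKN2B. The side of the median on which the 4 sites lay thus turned with the measure in both fusions, CAMTA1 and YAP5SA. All 6 comparisons share the EV list.

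**Figure D3:**
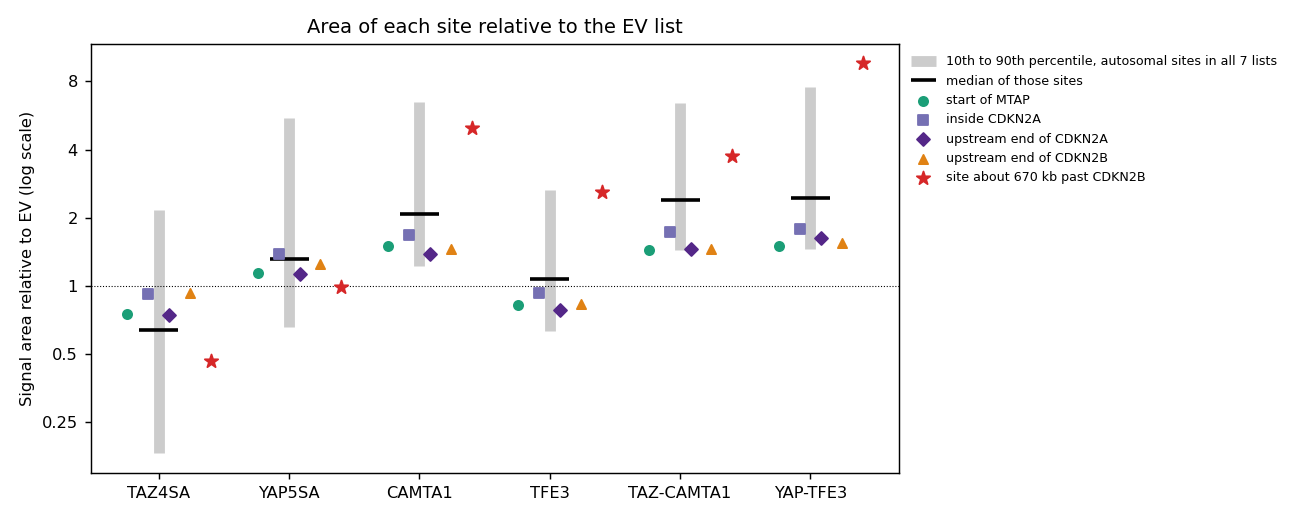
The y axis, on a log scale, gives the area of a site divided by its area in the EV list, for 6 lists on the x axis; coloured symbols are the 4 sites of MTAP, CDKN2A and CDKN2B, the red star is a site 672 kb past CDKN2B, and grey bars with a black line are the 10th to 90th percentiles and the median of 58784 autosomal sites present in all 7 lists. The 4 gene sites sit below the black line in CAMTA1, TFE3, TAZ-CAMTA1 and YAP-TFE3, and the star above it. The autosomal sites were not matched to the gene sites for area.

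Sites shared by all lists were frequent across the genes. From the start of MTAP to the end of CDKN2B (208.0 kb), 10 of 37 sites held peaks from all 7 lists (27.0%), as did 67 of 283 sites in the window (23.7%), against 16.2% of the autosomal sites. The 10 comprised 3 sites in MTAP, 4 in CDKN2A, 1 in CDKN2B and 2 between MTAP and CDKN2A. Of the 37 sites, 12 had a peak in 1 list alone (32.4%), against 42.4% of the autosomal sites. Neighbouring sites of a locus are not independent, and the shares were not tested.

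The other shared sites from MTAP to CDKN2B were weaker than the 4 above. Elsewhere in the window, chr9:20620340-20625240 and chr9:20683240-20685626 had larger areas summed over the lists than the MTAP site, 99396 and 81904 against 75023. Inside MTAP, the site chr9:21812002-21814324 had areas of 2986 in EV, 2086 in TAZ4SA, 3149 in YAP5SA, 4496 in CAMTA1, 2444 in TFE3, 4694 in TAZ-CAMTA1 and 4863 in YAP-TFE3. TAZ4SA was lowest and YAP-TFE3 highest, as at the upstream end of CDKN2A. A further site inside MTAP, chr9:21836037-21837069, had areas of 637 in EV, 2149 in TAZ4SA, 1947 in YAP5SA, 3594 in CAMTA1, 1198 in TFE3, 1669 in TAZ-CAMTA1 and 2913 in YAP-TFE3. Here EV was the lowest list and TAZ4SA stood above TFE3 and TAZ-CAMTA1, an order that none of the 4 strongest sites had.

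Between MTAP and CDKN2A, the site chr9:21919464-21920485 was the strongest. Its area was 1509 in EV, 364 in TAZ4SA, 2316 in YAP5SA, 2894 in CAMTA1, 1426 in TFE3, 3858 in TAZ-CAMTA1 and 3974 in YAP-TFE3. TAZ4SA was lowest and the fusions highest. Its neighbour chr9:21873398-21874156 had its largest area in YAP5SA, 820, and its smallest in EV, 30.7, close to the lowest area that the caller kept in any list, 20.

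Inside CDKN2A, 2 weak sites were present in all lists between the inner and the upstream peak. At chr9:21986840-21987513 the area ranged from 33.0 in YAP5SA to 1132 in TAZ-CAMTA1, and at chr9:21991129-21991937 from 122 in TAZ4SA to 1068 in TAZ-CAMTA1. TAZ-CAMTA1 was the highest list at both, followed by YAP-TFE3 with 740 and 977. Across MTAP to CDKN2B, 8 of 37 sites had a peak in both fusions and none in EV (21.6%). The share was 11.7% in the whole window and 14.0% of autosomal sites. Only 2 of the 37 had a peak in both fusions and in no other list (5.41%), against 3.13% of autosomal sites. A peak in EV and in neither fusion was found at 0 of 37, against 4.81%. The strongest of the 8 had a summit −log10 p of 7.57.

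Every list had a long peak-free stretch in the window, but it lay beyond the 3 genes on the side of CDKN2B. It spanned chr9:22683988-23260388 in EV (576 kb), chr9:22878162-23342475 in TAZ4SA (464 kb) and chr9:22986831-23342470 in YAP5SA (356 kb). In CAMTA1 it spanned chr9:22683990-23342408 (658 kb), in TFE3 chr9:22683995-23441553 (758 kb), in TAZ-CAMTA1 chr9:22683992-23342468 (658 kb) and in YAP-TFE3 chr9:23123311-23342136 (219 kb). Weak peaks shortened the stretch in every list but CAMTA1. With peaks from a summit −log10 p of 4 upwards it was 658 kb in YAP-TFE3. From 5 upwards it was 816 kb in EV, YAP5SA and TFE3, 808 kb in TAZ-CAMTA1 and 758 kb in TAZ4SA. The stretches of 816 kb ran to the end of the window, so their far edge and full length were not measured. As deposited, the near edge was 674 to 1113 kb past the end of CDKN2B, and 0 of 7 stretches touched a gene of the 3. In 4 lists (EV, CAMTA1, TFE3 and TAZ-CAMTA1) the near edge agreed within 7 bp, since a peak of the same site ended there.

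Longer stretches were found elsewhere in every list. Between 278 and 1078 were counted on the autosomes, with centromeres and assembly gaps left in, which was 0.125% to 0.469% of the autosomal stretches of a list. The part of the stretch that was free of peaks in all 7 lists was chr9:23123311-23260388 (137 kb).

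**Figure D4:**
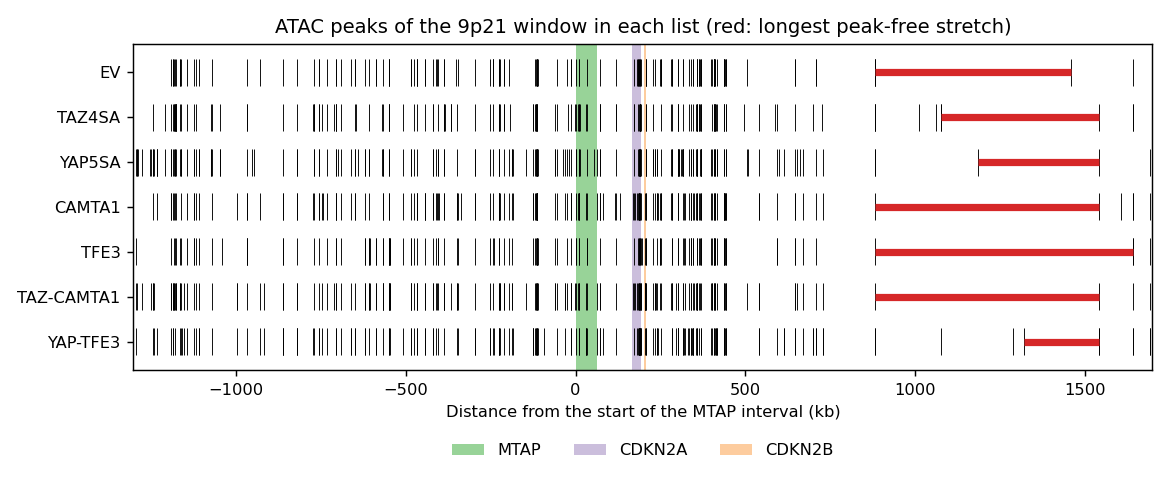
Each row is 1 list, each tick the centre of a peak at its distance (x axis, kb) from the start of the MTAP interval, coloured bands the MTAP, CDKN2A and CDKN2B intervals and red bars the longest peak-free stretch of the list, of 219 to 758 kb. Ticks fall in the coloured bands in all 7 rows, and the red bars all lie to the right of them.

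What little lay in the sparse stretch was weak. From the end of the site that bounds it, 22684029, to the end of the window (816 kb) there were 17 sites, 11 of them in 1 list alone and 0 in all 7. The lists had 2 peaks there in EV, 8 in TAZ4SA, 3 in YAP5SA, 5 in CAMTA1, 3 in TFE3, 3 in TAZ-CAMTA1 and 11 in YAP-TFE3. The largest area among them was 361, in YAP-TFE3. The stretch of YAP5SA began after a peak with a summit −log10 p of 4.14, and that of YAP-TFE3 after a peak with 3.96.

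The site that bounds the sparse stretch, chr9:22682405-22684028, varied more between lists than the 4 strongest sites at the 3 genes did, though not more than the weak CDKN2A site chr9:21986840-21987513. Its area was 923 in EV, 431 in TAZ4SA, 909 in YAP5SA, 4618 in CAMTA1, 2408 in TFE3, 3478 in TAZ-CAMTA1 and 8870 in YAP-TFE3. YAP-TFE3 stood far above every other list, at 9.61 times EV, the 93.0th percentile of that ratio over all shared autosomal sites. CAMTA1 was at 5.0 times (85.4th), TAZ-CAMTA1 at 3.77 times (75.4th), TFE3 at 2.61 times (89.7th), YAP5SA at 0.984 times (24th) and TAZ4SA at 0.467 times (33.7th). This site was singled out after its values were seen.

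The longest peak-free stretch that reached into the span of the 3 genes was far shorter. It measured 53.4 kb in EV, 53.6 kb in TAZ4SA, 53.2 kb in YAP5SA, 39.3 kb in CAMTA1, 53.4 kb in TFE3, 51.9 kb in TAZ-CAMTA1 and 53.2 kb in YAP-TFE3. In each list it began between MTAP and CDKN2A and ran 5.39 to 6.91 kb into the CDKN2A interval, and in EV it went from 21920391 to 21973762, up to the inner CDKN2A peak. It was long for these lists, whose autosomal stretches had medians of 1.39 to 2.74 kb, and between 3.69% and 6.95% of the autosomal stretches of a list were longer. With peaks from a summit −log10 p of 4 upwards, the longest stretch that reached into the span measured up to 82.8 kb. With 1 peak allowed inside it measured up to 99.7 kb.

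Peak number along the window, in bins of 250 kb, was highest at CDKN2B and just past it. The bin chr9:22000001-22250000 held 44 peak summits in EV, 36 in TAZ4SA, 49 in YAP5SA, 48 in CAMTA1, 41 in TFE3, 47 in TAZ-CAMTA1 and 49 in YAP-TFE3. This was the 85.2nd to 92.5th percentile of 9895 autosomal bins that held a peak in any list, whose medians were 10 to 17. The bin before it, with MTAP and CDKN2A, held 18, 26, 26, 33, 18, 29 and 31 summits in the same order of lists, the 65.3rd to 82.0th percentile. Past 22250000 the number was far lower, with 3 to 10 summits in the next bin, 0 to 4 in chr9:22750001-23000000 and 0 to 2 in chr9:23000001-23250000. The next bin still held a strong site with peaks in all 7 lists, chr9:22446301-22448385. Its area ran from 6873 in TAZ4SA to 14499 in YAP-TFE3.

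**Figure D5:**
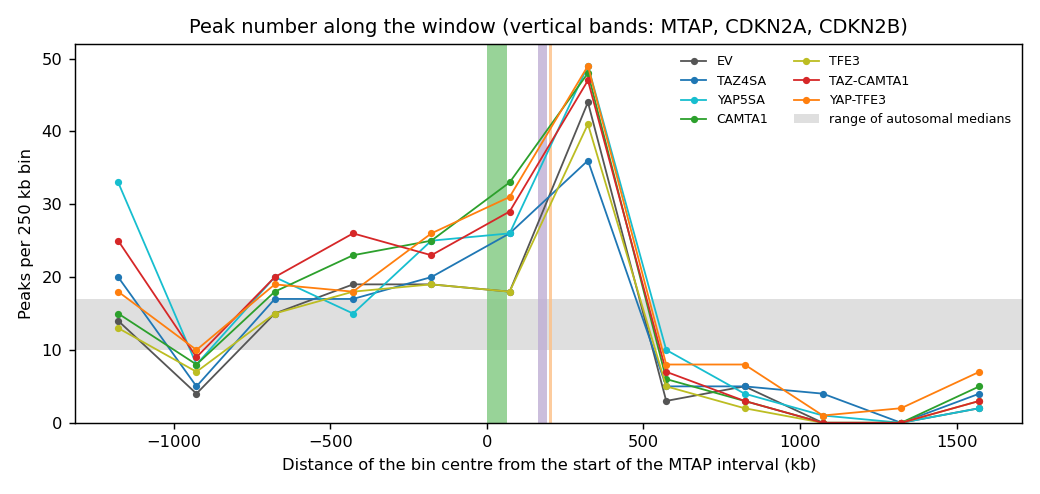
The y axis counts peak summits per bin of 250 kb and the x axis gives the distance of the bin centre from the start of the MTAP interval in kb, with 1 line per list, vertical bands for MTAP, CDKN2A and CDKN2B and a grey band for the range of the autosomal medians, 10 to 17. All lines peak in the bin of CDKN2B, at 36 to 49, and past it they run below the grey band, except YAP5SA with 10 summits, at the edge of the band, in the next bin.

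The peaks past CDKN2B but within its bin of 250 kb included several shared sites. The strongest were chr9:22147458-22149223, with areas of 3056 in EV to 6998 in CAMTA1, chr9:22051874-22053702, with 2269 in TAZ4SA to 6875 in YAP-TFE3, and chr9:22210999-22212762, with 2491 to 5424. At the first of these TAZ4SA stood above EV, at 1.33 times (82.3rd percentile of that ratio), and YAP-TFE3 at 2.24 times (43.4th). The weak site chr9:22136437-22137143 had the largest ratio to EV of the 67 shared window sites in CAMTA1 (24.3 times), TFE3 (4.13 times) and TAZ-CAMTA1 (17.9 times). Its area ran from 53.0 to 1533 over the lists, so these ratios divide by a small area in EV. The site was picked for its ratios. Over all 67, the median ratio to EV was 2.36 for YAP-TFE3, 2.44 for TAZ-CAMTA1, 2.29 for CAMTA1, 1.42 for YAP5SA, 1.07 for TFE3 and 0.799 for TAZ4SA, against the autosomal medians of 2.45, 2.40, 2.08, 1.32, 1.07 and 0.636.

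A peak is called from reads that align to it, and peaks were called at the 3 genes in all lists. The lists do not measure copy number, so the loss of some copies, or a deletion too short to remove a peak, was not tested, and neither was expression or protein of the 3 genes.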

How the data were processed

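ATAC-seq of SW872 cells was analysed from 7 peak lists, 1 per vector. Per the study's methods, reads were trimmed with NGmerge and aligned with BWA-MEM to hg19, and the authors called peaks with Genrich in its ATAC mode after removal of PCR duplicates, a blacklist of artefact regions, the mitochondrial genome and several unplaced contigs. Those methods speak of calling on each replicate, whereas 1 list per vector was deposited, and how libraries were combined is not given in the sources used here. The signal that the authors deposited for a peak is an area, the caller's statistic summed over the peak, with a lowest value of 20, and the −log10 p-value of the summit was deposited beside it. The deposited score and q-value columns were not used.

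Groups were taken from the labels. Overlapping peaks of all lists were merged (at least 1 bp shared), and stretches between neighbouring peaks, peaks per interval and summits per bin were computed with Python 3.11.15, numpy 2.4.6 and pandas 2.3.3. A percentile is the share of values below. The interval steps were tested on simulated peaks. Peaks on chromosome 1 reach position 249240671, beyond the end of that chromosome in GRCh38, so the GRCh38 reference was used only for promoter sequences, strand and names. Neighbouring genes, RB pathway genes and methionine cycle genes need hg19 positions and were not analysed here. The members and lists were chosen with earlier results of these data known. Named were the 3 members, the sites at the edges of the stretch, and sites chosen after their values were seen, as stated beside them. As alternatives, peaks were kept only from a summit −log10 p of 4 or of 5, lists were cut to equal length (152702 peaks) or left out in turn, summits stood for peaks, 1 peak was allowed in a stretch, intervals were extended by 5 kb, and other bins were used.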

Additional observations from a re-analysis of the deposited data

How the results depend on the processing

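Each gene had a peak in 7 of 7 lists, and the longest stretch touched a gene in 0 of 7, under every alternative tried. Of 51 alternative values of the summary results, 42 moved by less than 1.5 times, as did 27 of 35 values for single lists. Merged over all lists, the longest peak-free stretch of the window was 152 kb, chr9:22530136-22682404. It was 274 kb when only peaks from a summit −log10 p of 4 upwards were kept, 658 kb from 5 upwards, 382 kb with equal numbers of peaks and 274 kb without the YAP-TFE3 list. In each of these another stretch, past the site at 22682405, became the longest. In single lists, equal numbers of peaks gave 816 kb in YAP5SA, cut off by the end of the window, and 658 kb in YAP-TFE3. With 1 allowed peak it was 659 kb and 405 kb in the same lists. On the autosomes 1484 merged stretches were longer than that of 152 kb, 52 of them on chromosome 9. With peaks from 5 upwards, a limit added here after seeing the data, peaks summed over the lists went from 48 to 29 in MTAP, from 77 to 39 in CDKN2A and from 23 to 15 in CDKN2B. In bins of 1 Mb the bin of CDKN2B stood at the 48.1st percentile in the median list, against the 88.3rd in bins of 250 kb, since the larger bin takes in the sparse stretch. A search without window bounds for a stretch that holds the 3 genes gave no value, as no stretch holds them. No paired analysis was possible because there is 1 list per vector and no value for a single library, and leaving out replicates was not run for the same reason. With 1 list per vector and unknown depth, a missing weak peak cannot be told apart from one below the caller's limit.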
